A study of Mus musculus with 6 samples.

Results

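The genes described here are 10 genes of pericentral hepatocytes, the liver cells that surround the central vein. They were chosen as the rows of the count files named Glul, Oat, Rhbg, Slc1a2, Axin2, Lgr5, Tbx3, Nkd1, Rnf43 and Znrf3, and all 10 were found among the 23284 genes listed. RNA was sequenced from the liver of C57BL/6 mice, 8 weeks old, that had been fasted overnight, given either vehicle or FGF19 at 1 mg/kg, and kept without food for the 6 h that followed. Each group held 3 libraries, one per mouse, and no genetic modification is named for either group. The general description of the study's animals is of male mice. FGF19 is the human hormone, which the gut releases after a meal, and the corresponding hormone of the mouse is FGF15. The route by which it was given and the composition of the vehicle are not given in the sources used here.

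In the liver lobule, endothelial cells of the central vein secrete Wnt ligands and R-spondin, and the hepatocytes next to them respond through beta-catenin. One set of target genes serves nitrogen metabolism, since these hepatocytes take up glutamate and ammonium and build glutamine from them. Another set feeds back on the pathway itself, either by speeding the loss of beta-catenin or by removing Wnt receptors from the cell surface. Hepatocytes around the portal vein do the opposite work, with glutaminase and the urea cycle.

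None of the 10 genes was called as changed between FGF19 and vehicle, where a call means that edgeR's quasi-likelihood test gave a p under 0.05 after adjustment. P-values were adjusted by the Benjamini-Hochberg method over the 12559 genes tested, of which 7.41% were called, 4.56% as higher and 2.84% as lower after FGF19. The threshold of p under 0.01 without adjustment called none of the 10 either, against 6.20% of all genes as higher and 4.98% as lower, and DESeq2 called none. At an unadjusted p under 0.05 there were 2 of the 10, Slc1a2 and Rnf43, both lower after FGF19, where 22.9% of all genes tested had such a p. With 1 library left out this number was between 0, without vehicle replicate 1, and 4, without vehicle replicate 2. With DESeq2 it was 1. All 10 genes had been kept by the filter on low counts. The median log2 fold change of the 10 genes was -0.23, with 8 below 0 and 2 above, against a median of -0.00076 over all genes tested. Disregarding direction, the median size of the log2 fold change over all genes tested was 0.18, and 5 of the 10 genes lay below it.

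The total count per library was between 18994654 and 22920056, and levels are given as CPM, the usual unit that sets the reads of a gene against all reads counted in its library, after scaling by edgeR's TMM method. A count of 3 corresponded to between 0.136 and 0.159 CPM, and this limit covers counting error only. The mates of a read pair were counted separately, so reads are not independent molecules. All 6 libraries differed from each other by more than sampling noise. Cyp7a1, the rate-limiting enzyme of bile acid synthesis and a gene known to be repressed by this hormone, was read as a check of the treatment and was between 221.9 and 309.8 CPM with vehicle and between 9.35 and 12.4 CPM with FGF19. FGF19 replicate 3 was farther from FGF19 replicates 1 and 2 than these were from each other, with a chi-square statistic per degree of freedom over all genes of 31.6 and 42.0 against 8.69. The pairs of vehicle libraries gave 16.4 to 29.5, and pairs across the groups gave 72.5 to 105.7. Its Cyp7a1 was at 12.4 CPM, within the range of its group. The level of a gene in whole liver cannot tell fewer pericentral cells from less RNA in each, and zonation itself was not measured.

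**Figure D1:**
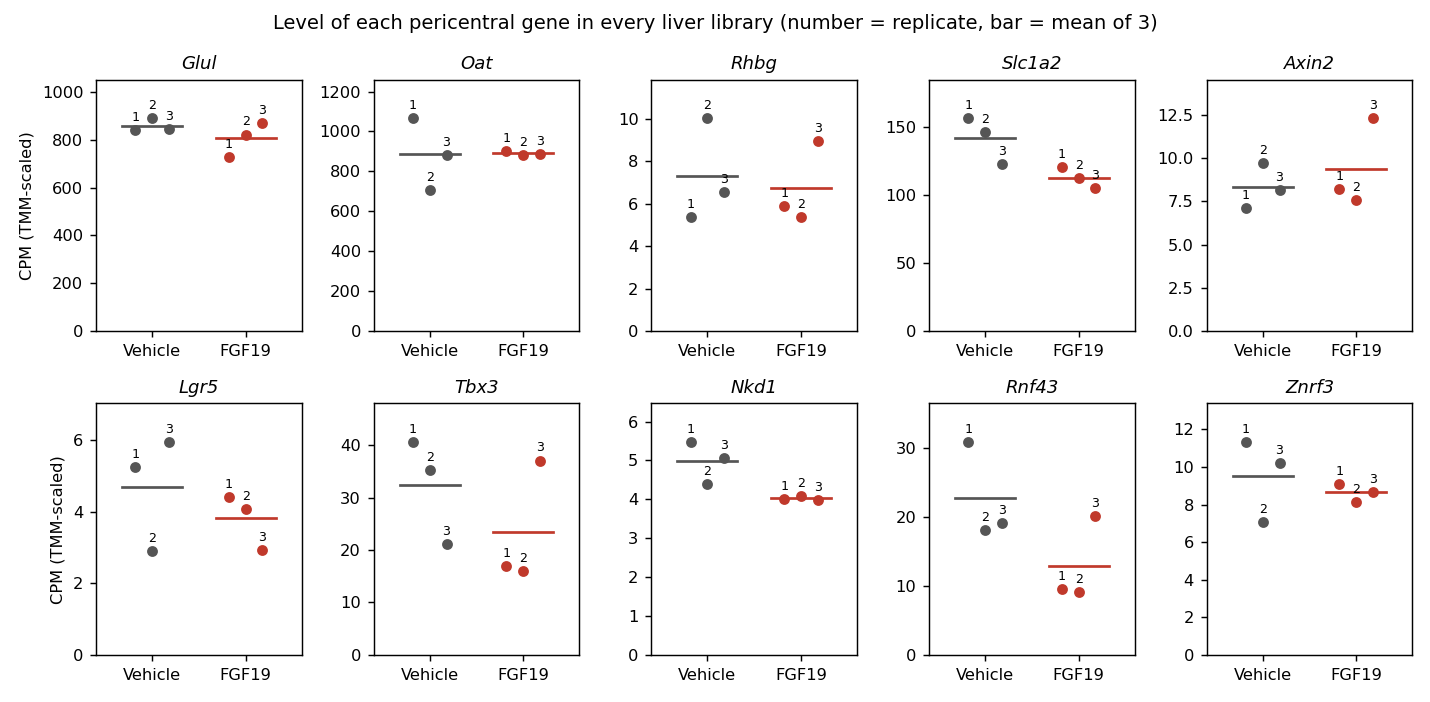
Level of each of the 10 genes in CPM (vertical axes, starting at 0, a scale for each gene) in the 3 vehicle and 3 FGF19 libraries, with the replicate number beside each point and a bar at the mean. The groups are separate for Slc1a2 and Nkd1, and in Tbx3 and Rnf43 FGF19 replicate 3 lies with the vehicle libraries, at 37.1 and 20.2 CPM.

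Per length of exon, the nitrogen genes Oat and Glul stood far above the others. In vehicle-treated mice Oat was at 411 CPM per kb and Glul at 309 CPM per kb, and their ranges did not overlap (328 to 495 and 302 to 320 CPM per kb). Slc1a2 followed at 11.8 CPM per kb, below Glul and above Tbx3 in every vehicle library. Tbx3 was at 6.37 CPM per kb, Rnf43 at 5.26 and Rhbg at 3.83. The vehicle ranges of Tbx3 and Rnf43 overlapped, as did those of Rnf43 and Rhbg, while Rhbg lay above Axin2 without overlap. The remaining levels, in the same unit, were 1.95 for Axin2, 1.51 for Znrf3, 1.12 for Nkd1 and 0.999 for Lgr5, and none of these neighbours was separated from the next in vehicle. The exons of none of the 10 genes overlapped those of another gene in the files.

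Upstream sequences were compared for the motif of the TCF and LEF factors, through which beta-catenin acts on DNA. RefSeq promoters (build GRCm38.p6, 250 bases before to 50 after the start of a transcript) matched 6 of the 10 genes, Glul, Oat, Slc1a2, Axin2, Nkd1 and Rnf43, with 7 windows because Rnf43 has 2 starts. The letters CTTTGAT or CTTTGTT were searched on both strands. They were found in 1 of the 7 windows, that of Slc1a2, and in 9.33% of all 32851 windows of this length. Other forms of the motif and sequence outside these windows were not searched. A window without a match therefore does not show that its gene lacks such sites. The match in Slc1a2 was on the reverse strand, at 207 bases before the transcript start of that window. The sequences that follow are the 250 bases before a transcript start, all on the plus strand of GRCm38.p6. Slc1a2 (chr2:102706188-102706437) and the first start of Rnf43 (chr11:87662837-87663086) stand for the 2 genes with an unadjusted p under 0.05. Axin2 (chr11:108920099-108920348) is the pathway's usual readout. Whether each window lies at the start of the gene as counted on mm9, or at a start inside it, was not tested. The sequences are written 5′ to 3′, and capitals mark the motif.
Slc1a2: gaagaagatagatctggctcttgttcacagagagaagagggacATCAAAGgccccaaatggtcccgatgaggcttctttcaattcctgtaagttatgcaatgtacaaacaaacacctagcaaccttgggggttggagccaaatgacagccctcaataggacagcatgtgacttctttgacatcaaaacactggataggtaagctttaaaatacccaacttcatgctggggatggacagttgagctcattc
Rnf43: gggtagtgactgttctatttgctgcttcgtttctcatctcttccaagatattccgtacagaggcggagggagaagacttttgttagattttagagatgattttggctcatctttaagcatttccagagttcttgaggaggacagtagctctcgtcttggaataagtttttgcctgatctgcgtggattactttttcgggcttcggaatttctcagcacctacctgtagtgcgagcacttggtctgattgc
Axin2: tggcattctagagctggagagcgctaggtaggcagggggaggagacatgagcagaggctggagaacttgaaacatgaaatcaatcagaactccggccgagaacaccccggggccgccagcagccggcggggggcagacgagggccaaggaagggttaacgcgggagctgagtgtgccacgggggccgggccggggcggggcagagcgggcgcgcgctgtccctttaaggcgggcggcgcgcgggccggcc

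The window of Axin2 was rich in CpG, with 31 CpG pairs in its 300 bases and a GC content of 70.0%, and that of Slc1a2 was poor, with 1 pair and 45.7%. The first window of Rnf43 had 10 pairs. The median of all windows was 7 pairs and 52.7%. A match is a description of letters, and the 3 genes shown did not share one.

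Glul encodes glutamine synthetase, which joins ammonium to glutamate and is the classical marker of the last hepatocytes before the central vein. On mm9 it lies on chromosome 1 from 155747075 to 155756844. Its level was 839, 891 and 845 CPM in vehicle replicates 1, 2 and 3, and 729, 822 and 871 CPM in FGF19 replicates 1, 2 and 3. The groups overlapped, since FGF19 replicate 3 was above 2 of the 3 vehicle libraries. The log2 fold change was -0.088 (95% interval -0.30 to 0.13), with an adjusted p of 0.64 in edgeR's quasi-likelihood test. Expressed as a ratio, FGF19 over vehicle was 0.941, with an interval from 0.811 to 1.09.

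Oat encodes ornithine aminotransferase, a mitochondrial enzyme that passes the amino group of ornithine on to form glutamate. It lies on chromosome 7 of mm9 from 139749158 to 139768081. With vehicle it was at 1067, 707 and 884 CPM, and with FGF19 at 903, 881 and 886 CPM. The FGF19 libraries thus all fell inside the range of the vehicle libraries, with a coefficient of variation of 1.30% against 20.3%. Its log2 fold change was 0.0070 (95% interval -0.30 to 0.31, adjusted p = 0.98 in the same edgeR test), the smallest of the 10 genes.

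Rhbg encodes an ammonium transporter of the hepatocyte membrane, on chromosome 3 of mm9 from 88046796 to 88058606. It was at 5.39, 10.02 and 6.55 CPM with vehicle and at 5.91, 5.38 and 8.96 CPM with FGF19. The ranges were nearly the same, and the spread within each group was large, at 32.9% and 28.7% of the mean. From its lowest count of 113 reads, counting alone gives 9.41% if every read came from its own fragment and 13.3% if both mates of each fragment were counted. The log2 fold change of -0.11 had a 95% interval from -0.70 to 0.47 (adjusted p = 0.85 in the same edgeR test), so only large changes of this gene could have been detected.

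Slc1a2 encodes the glutamate transporter GLT-1, best known from astrocytes, which in the liver is a gene of the Glul-positive hepatocytes. On mm9 it lies on chromosome 2 from 102498840 to 102630941. Its level was 157, 146 and 123 CPM with vehicle and 121, 113 and 105 CPM with FGF19. The groups did not overlap, although FGF19 replicate 1 and vehicle replicate 3 were close. The mean was 142 ± 17.4 CPM in the vehicle group and 113 ± 7.96 CPM in the FGF19 group (SD, n = 3 each). This was a log2 fold change of -0.33 (standard error 0.11, 95% interval -0.57 to -0.088), or a level of 0.795 relative to vehicle. Its p of 0.0127 became 0.10 after Benjamini-Hochberg adjustment in edgeR's quasi-likelihood test, so that it was not called. An exact permutation test of this single gene gave the smallest two-sided p that 3 against 3 mice allow, 0.1.

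Lgr5 encodes a receptor for R-spondins that strengthens Wnt signalling, on chromosome 10 of mm9 from 114887370 to 115024836. It had the lowest level per length of the 10 genes, with between 55 and 120 reads per library. It was at 5.24, 2.92 and 5.96 CPM with vehicle and at 4.42, 4.09 and 2.94 CPM with FGF19. Vehicle replicate 2 and FGF19 replicate 3 were the low libraries, and the groups overlapped. The log2 fold change of -0.31 had a 95% interval from -0.91 to 0.29 (adjusted p = 0.55 in the same edgeR test).

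Rnf43 and Znrf3 encode related ubiquitin ligases of the cell membrane that remove Frizzled receptors and thereby restrain Wnt signalling, and R-spondin bound to LGR receptors takes them away. Rnf43 lies on chromosome 11 of mm9 from 87476589 to 87549041. It was at 30.9, 18.1 and 19.1 CPM with vehicle and at 9.54, 9.05 and 20.2 CPM with FGF19. In FGF19 replicates 1 and 2 the level was thus below every vehicle library, while FGF19 replicate 3 lay above vehicle replicates 2 and 3. Over all 6 mice the log2 fold change was -0.81 (standard error 0.31, 95% interval -1.51 to -0.11), the largest of the 10 genes. Its p of 0.0275 became 0.16 after adjustment in the quasi-likelihood test of edgeR. Without FGF19 replicate 3 it was -1.29 (95% interval -1.82 to -0.75, adjusted p = 0.0101 in the same test), or 0.410 of the vehicle level. It moved the other way, to -0.52 (adjusted p = 0.40), without vehicle replicate 1, the highest library.

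Znrf3, on chromosome 11 of mm9 from 5176332 to 5344850, did not share this pattern. It was at 11.3, 7.05 and 10.2 CPM with vehicle and at 9.12, 8.13 and 8.69 CPM with FGF19, and all 3 FGF19 libraries fell inside the range of vehicle. Its log2 fold change was -0.14 (95% interval -0.54 to 0.25, adjusted p = 0.69 in the same edgeR test). Per length of exon, the ratio of Rnf43 to Znrf3 was 3.98, 3.76 and 2.73 with vehicle and 1.53, 1.63 and 3.40 with FGF19. This ratio was looked at after the values had been seen, and an exact two-sided permutation test gave p = 0.2.

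Inside the cell, Axin2 and Nkd1 are feedback inhibitors. Axin2 encodes a scaffold of the complex that degrades beta-catenin and is the most widely used readout of the pathway. It lies on chromosome 11 of mm9 from 108781663 to 108812095. Its level was 7.10, 9.70 and 8.14 CPM with vehicle and 8.19, 7.58 and 12.3 CPM with FGF19. Only FGF19 replicate 3 left the range of the vehicle libraries, on the high side. FGF19 against vehicle gave a log2 fold change of 0.17 (95% interval -0.28 to 0.63, adjusted p = 0.67 in the same edgeR test), and it turned to -0.069 without FGF19 replicate 3.

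Nkd1 encodes an inhibitor that binds Dishevelled, on chromosome 8 of mm9 from 91045243 to 91118786. It was at 5.48, 4.40 and 5.06 CPM with vehicle and at 4.001, 4.09 and 3.98 CPM with FGF19. The FGF19 libraries lay below all vehicle libraries and very close together, with a coefficient of variation of 1.41%, less than counting alone gives at the lowest count. There were between 83 and 115 reads per library over both groups. For Nkd1 the log2 fold change was -0.31 (95% interval -0.65 to 0.037). A p of 0.0747 became 0.27 after adjustment in the quasi-likelihood test of edgeR. Slc1a2 and Nkd1 were the 2 of 10 genes whose groups did not overlap, both on the low side, where 28.3% of all genes tested had groups that did not overlap, 13.8% on the low and 14.5% on the high side.

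Tbx3 encodes a T-box transcription factor induced by beta-catenin in these hepatocytes, on chromosome 5 of mm9 from 120120678 to 120134610. It was at 40.7, 35.3 and 21.2 CPM with vehicle and at 17.0, 16.0 and 37.1 CPM with FGF19. As with Rnf43, FGF19 replicates 1 and 2 were below every vehicle library and FGF19 replicate 3 was near the top of the vehicle range. Over all mice this gave a log2 fold change of -0.47 (95% interval -1.20 to 0.26, adjusted p = 0.44 in the same edgeR test). Without FGF19 replicate 3 it was -0.97 (95% interval -1.52 to -0.41, adjusted p = 0.0326), or 0.512 of the vehicle level. It moved the other way without vehicle replicate 1 (-0.27), FGF19 replicate 1 (-0.29) or FGF19 replicate 2 (-0.25), with adjusted p from 0.74 to 0.77 in the same edgeR test.

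**Figure D2:**
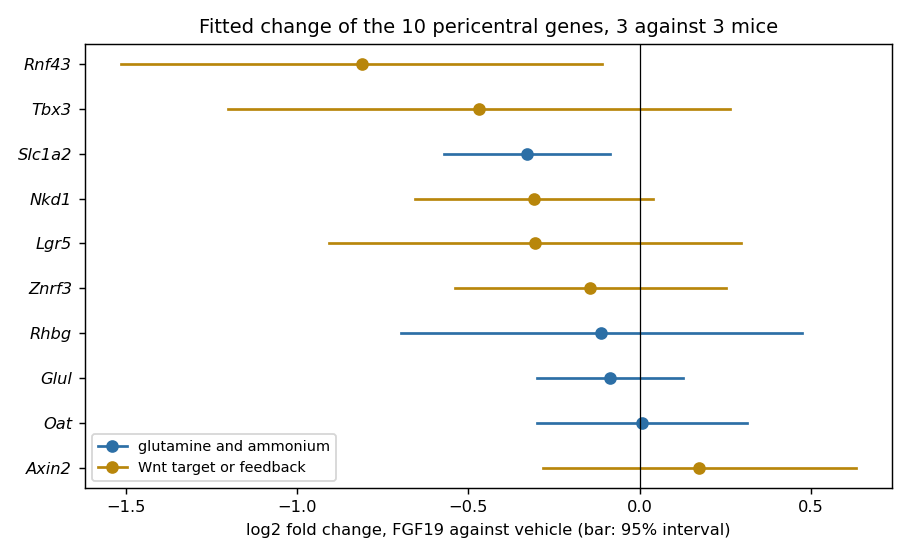
Log2 fold change of FGF19 against vehicle (horizontal axis) for the 10 genes, with 95% intervals from edgeR's quasi-likelihood fit on 3 against 3 mice, coloured by role. Only the intervals of Rnf43 (-1.51 to -0.11) and Slc1a2 (-0.57 to -0.088) leave out 0, before adjustment over all genes.

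For Tbx3 and Rnf43 the spread between mice of one group was larger than counting error. At the lowest counts, counting alone gives at most 7.57% for Tbx3 and 10.1% for Rnf43, the values if both mates of each fragment were counted, against coefficients of variation of 31.0% and 31.3% with vehicle and 50.8% and 48.7% with FGF19. FGF19 replicate 3 exceeded the mean of FGF19 replicates 1 and 2 by 2.24-fold for Tbx3, 2.17-fold for Rnf43, 1.59-fold for Rhbg and 1.56-fold for Axin2. For the other genes this ratio was 1.12 for Glul, 1.01 for Znrf3, 0.993 for Oat, 0.985 for Nkd1, 0.899 for Slc1a2 and 0.692 for Lgr5. The library was therefore not shifted in one direction for all 10 genes. Without it, 2 of the 10 genes passed an adjusted p of 0.05, Rnf43 and Tbx3, and both were lower. In that comparison of 3 vehicle-treated with 2 FGF19-treated mice 15.3% of all genes tested passed, and 7.30% passed as lower. These 2 genes were called in no other fit that left out 1 library.

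**Figure D3:**
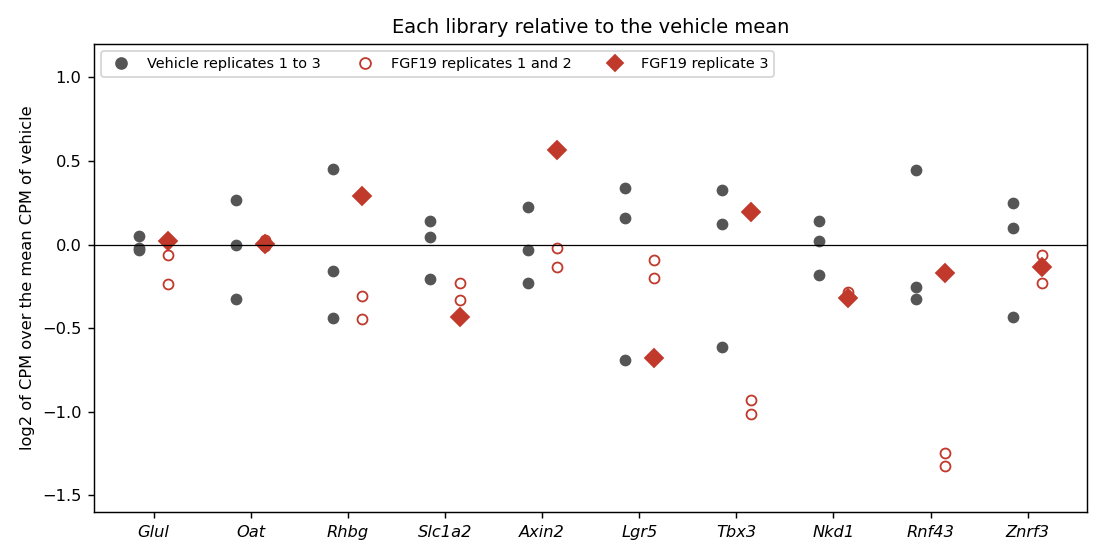
Each library's CPM relative to the mean of the vehicle libraries, as log2 (vertical axis), for the 10 genes. FGF19 replicate 3, drawn as a diamond, lies apart from FGF19 replicates 1 and 2 for Tbx3, Rnf43, Axin2, Rhbg and Lgr5 and beside them for Oat, Nkd1 and Znrf3.

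Around these 10 genes, the pathway was read from lists of its other parts. Among Wnt ligands, R-spondins and receptors, 18 of 27 genes were tested and 1 was called, as higher, where 4.56% of all genes tested were called higher. This was Wnt5a, a ligand that mostly signals without beta-catenin. It averaged 1.93 ± 0.225 CPM in vehicle livers and 3.57 ± 0.491 CPM in FGF19 livers (SD, n = 3 each), a log2 fold change of 0.88 (adjusted p = 0.0280, edgeR). The call was kept only when FGF19 replicate 3 was the library left out. Wnt2, Wnt9b and Rspo3 are the ligands and the R-spondin that the central vein endothelium is known for. Wnt2 had a log2 fold change of 0.23 and Rspo3 of -0.18, with adjusted p of 0.62 and 0.53 in the same edgeR test. Wnt9b averaged 0.914 ± 0.415 CPM in vehicle livers and 1.81 ± 0.201 CPM in FGF19 livers (SD, n = 3 each), with groups that did not overlap, and was not called (log2 fold change 0.98, adjusted p = 0.10 in edgeR's test). Lgr4, the R-spondin receptor of most hepatocytes, lay below vehicle in 3 of 3 mice with a log2 fold change of -0.28 and was not called either (adjusted p = 0.20, edgeR).

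Of the intracellular pathway, 21 of 23 genes were tested and none was called by edgeR's quasi-likelihood test, with 1 at an unadjusted p under 0.05. DESeq2 also called none, and edgeR's likelihood ratio test called 1. The quasi-likelihood test called 1 gene of this list higher without vehicle replicate 2 and 1 without FGF19 replicate 3. Ctnnb1, which encodes beta-catenin, averaged 152 ± 9.09 CPM in vehicle livers and 164 ± 15.5 CPM in FGF19 livers (SD, n = 3 each). The list had a median log2 fold change of 0.039. Csnk1a1, a kinase of the complex that degrades beta-catenin, had a log2 fold change of -0.051.

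Among other Wnt targets and secreted antagonists 8 of 19 genes were tested. Of these, 2 were called higher and 1 lower, where 4.56% and 2.84% of all genes tested were. Myc fell by 1.42 on the log2 scale (adjusted p = 0.0128, edgeR), while Ccnd1, which encodes cyclin D1, and Cd44, an adhesion receptor, rose by 0.65 and 0.85 (adjusted p = 0.0318 and 0.0195). These 3 genes answer to many signals besides Wnt. Each lost its call when certain libraries were left out, Myc in 2 of 6 such fits, Cd44 in 4 and Ccnd1 in 5.

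The other pericentral hepatocyte genes, mostly enzymes of drug and hormone metabolism, included more called genes. Of 18 genes, all tested, 7 were called lower and none higher in edgeR's quasi-likelihood test, where 2.84% of all genes tested were called lower, and their median log2 fold change was -0.39. The difference between this list and the 10 genes was not tested. Ahr, which encodes the receptor for dioxin and related ligands, changed most, averaging 51.3 ± 7.08 CPM in vehicle livers and 19.2 ± 4.82 CPM in FGF19 livers (SD, n = 3 each), a log2 fold change of -1.42 (adjusted p = 0.00197, edgeR). It was followed by Cyp2c54 (-0.79), Cyp2c37 (-0.67), Nr1i3 (-0.64), Cyp2c50 (-0.61) and Aldh1a1 (-0.60), whose adjusted p in edgeR ran from 0.00282 to 0.0381. The Cyp2c genes resemble each other closely, and Nr1i3 shares exon positions with Tomm40l. Reads aligned to several places or genes were left out, so some of their reads may be missing from the counts. Ahr, Cyp2c54 and Cyp2c37 were called in all 6 fits that left out a library, Cyp2c50 in 5, Aldh1a1 in 3 and Nr1i3 in 1. The number called was 3 without FGF19 replicate 1, 4 without vehicle replicate 1 or FGF19 replicate 2, 5 without vehicle replicate 2 or 3, and 10 without FGF19 replicate 3. These fits called between 2.69% and 15.3% of all genes in either direction. The share was highest without FGF19 replicate 3, where 7.30% of all genes were called lower. Cyp2e1 and Cyp1a2, the 2 most used markers of this zone after Glul, had log2 fold changes of -0.39 and -0.097 and were not called (adjusted p = 0.0645 and 0.70 in the same edgeR test). The groups of Cyp2e1 did not overlap, its unadjusted p was under 0.01, and without FGF19 replicate 3 it was called lower (adjusted p = 0.00895 in edgeR), as in no other fit that left out a library.

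**Figure D4:**
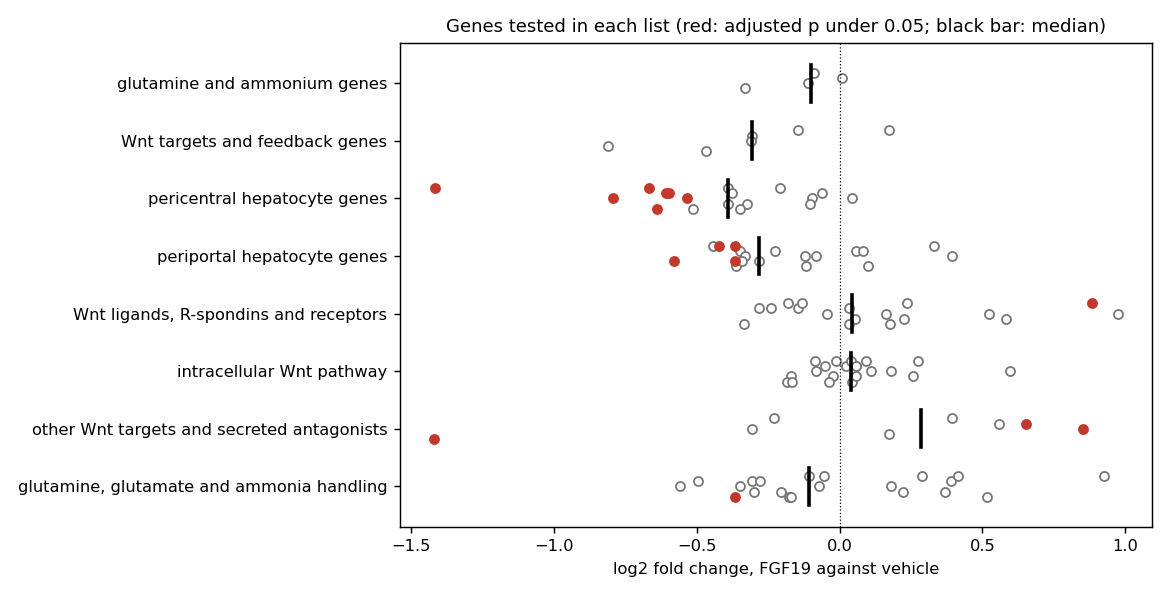
Log2 fold change of FGF19 against vehicle (horizontal axis) for each tested gene of the 10 genes, split by role in the top 2 lines, and of 6 lists of related genes, with called genes in red and the median as a black bar. The medians are -0.10 for the glutamine and ammonium genes, -0.31 for the Wnt targets and feedback genes and -0.39 for the other pericentral genes.

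Genes of the opposite zone also included calls. Of 19 periportal hepatocyte genes, all tested, 4 were called lower and none higher by edgeR's quasi-likelihood test, where 2.84% of all genes tested were called lower, with a median log2 fold change of -0.28. The called genes were Asl, of the urea cycle, Sds, which breaks down serine, Gls2, the glutaminase that undoes the work of Glul, and Uroc1, of histidine breakdown, with log2 fold changes from -0.58 to -0.37 and adjusted p in edgeR from 0.0328 to 0.0452. Without FGF19 replicate 3 there were 6, in a fit that called 7.30% of all genes lower. Without vehicle replicate 2 there was 1, and without any of the other 4 libraries there were none. Gls2 and Sds share exon positions with Spryd4 and Plbd2, so reads from the shared positions may be missing from their counts. Among 27 genes that handle glutamine, glutamate and ammonia, 21 were tested and 1 was called, as lower, where 2.84% of all genes tested were. This was Gls2, which is also on the periportal list. The list's median log2 fold change was -0.11. DESeq2 called 5 of the 21, all lower, in a fit that called 519 of the 12559 genes lower, against 357 with edgeR. With edgeR 5 were called without FGF19 replicate 3, in a fit that called 7.30% of all genes lower. There was 1 without vehicle replicate 2 and 0 without any of the other 4 libraries. Cps1, the first enzyme of the urea cycle, had a log2 fold change of -0.35 and was not called (adjusted p = 0.13 in the same edgeR test).

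Markers of liver cell types were read in the same libraries. Over all genes tested, edgeR's quasi-likelihood test called 4.56% higher and 2.84% lower, and DESeq2 called 9.24% in either direction. The summed level of 12 endothelial markers was 417 to 453 CPM with vehicle and 426 to 439 CPM with FGF19, with 1 of 12 called, Cdh5, which rose (log2 fold change 0.43). The number of endothelial markers called higher was 1 without FGF19 replicate 3 and 0 without any of the other 5 libraries. Clec4g and Vwf had log2 fold changes of -0.38 and -0.40 and were not called (adjusted p = 0.0736 and 0.18 in edgeR), and DESeq2 called 1 endothelial marker lower. That of 7 hepatocyte markers was 99470 to 104200 CPM with vehicle and 92320 to 103300 CPM with FGF19, with none of 7 called by edgeR and 1 at an unadjusted p under 0.05, where DESeq2 also called none. Of 8 macrophage markers 2 were called higher, Marco and Cd68 (log2 fold changes 2.29 and 0.66), where 4.56% of all genes tested were called higher. The sums of the 8 were 189 to 236 CPM with vehicle and 196 to 230 CPM with FGF19. Vsig4, Clec4f and Cd5l had log2 fold changes of -0.54, -0.29 and -0.22 and were not called (adjusted p = 0.0755, 0.23 and 0.33 in edgeR), while DESeq2 called 1 macrophage marker lower. Of 9 stellate and fibroblast markers 1 was called lower, Colec11, with sums of 242 to 336 and 232 to 280 CPM, and 2 were called lower without FGF19 replicate 2. The 6 cholangiocyte markers had sums of 72.0 to 89.4 and 55.7 to 86.0 CPM and none was called by the same test, with none at an unadjusted p under 0.05 and none called by DESeq2. The 5 neutrophil markers found had sums of 2.29 to 3.72 and 5.98 to 9.10 CPM, with 1 of 3 tested called higher, S100a9. The number of neutrophil markers called was 0 without vehicle replicate 1 or 2 or FGF19 replicate 1 or 2, 1 without vehicle replicate 3 and 3 without FGF19 replicate 3. Without FGF19 replicate 3 the markers called lower were 2 of hepatocytes and 1 each of cholangiocytes, endothelial cells, macrophages and stellate cells. The markers called higher in that fit, beside the neutrophil markers, were 3 of macrophages and 1 each of stellate and endothelial cells. That fit called 15.3% of all genes tested in either direction, and 7.30% as lower. Without vehicle replicate 2 there was 1 cholangiocyte marker called higher. No marker was at 0 in all 6 libraries, and the part of any cell type in the values above was not tested. For FGF19 replicate 3 the hepatocyte sum was 103300 CPM and the endothelial sum 426 CPM.

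Patterns of single genes over the 6 libraries were compared by the root mean square difference of log2 CPM, each gene centred on its own mean, over 11659 genes with a mean of at least 1 CPM. The genes closest to Glul were Commd3, Prdx4 and Gpx1, at 0.0255, 0.0261 and 0.0264, where Glul itself had a standard deviation of 0.10. The genes closest to Axin2 were A230050P20Rik, Mterfd3 and Gpsm3, at 0.0605, 0.0690 and 0.0785, where the standard deviation of Axin2 was 0.29. These names describe the 6 libraries and nothing beyond them.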

How the data were processed

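Liver RNA of 6 mice, 3 per group, was analysed from the deposited count files. The authors aligned paired-end reads to mm9 with STAR (2.5.3a per the submitters' processing notes, other versions elsewhere) and counted them on exons with featureCounts 1.5.2, and the deposited count of a gene is the raw number of reads. Per the file headers strand was not used, mates were counted separately, and reads aligned to several places or genes were left out. A deposited table of the authors' own comparison (fold changes, mean log2 CPM and p-values) was not used. Groups and replicate numbers came from the sample titles.

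Genes were filtered with edgeR's filterByExpr, scaled by TMM and compared with the quasi-likelihood test without covariates (R 4.3.3, edgeR 4.0.16), and p-values were adjusted by Benjamini-Hochberg over every gene kept. The methods of the study state an edgeR pipeline without naming the test. Standard errors were the log2 fold change over the square root of F. Counts with known changes were simulated to test the scripts. The alternatives were DESeq2 1.42.0, limma-voom (limma 3.58.1), the likelihood ratio test, no TMM, other filters and thresholds, a replicate block and each library left out. All 10 genes were named. From each pathway list the called genes were named, at most 6 per direction, or the 2 with the highest level where none was called, together with Wnt2, Wnt9b, Rspo3, Ctnnb1, Lgr4, Cyp2e1, Cyp1a2, Gls2 and Cps1, with Cyp7a1 as the treatment check, and for Glul and Axin2 the 3 genes with the most similar pattern. Marker genes named outside this rule were chosen after their values were seen. The 10 genes and the lists were chosen with earlier results of these data known. Of the marker lists, Tf and Ly6g were not analysed here. The p-values of edgeR set the difference between groups against a spread between mice that is estimated with help from all genes.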

Additional observations from a re-analysis of the deposited data

How the results depend on the processing

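The number of the 10 genes called was 0 in each direction with DESeq2, no TMM scaling, no filter, the likelihood ratio test, limma-voom, p under 0.01, adjusted p under 0.01 and a minimum of 1 CPM in each library, and between 0 and 2 lower with each library left out, the 2 coming without FGF19 replicate 3. Their median log2 fold change stayed between -0.31 and -0.14 with each library left out. The sign was not fixed for Oat (-0.13 to 0.16), Rhbg (-0.36 to 0.18) and Axin2 (-0.069 to 0.31) in those fits, and was the same for the other 7 genes. Over all genes, 573 were called higher and 357 lower, and with a library left out between 236 and 1015 higher and between 91 and 926 lower, both highest without FGF19 replicate 3. The likelihood ratio test called 579 lower, p under 0.01 called 626 lower, and an adjusted p under 0.01 called 228 higher and 80 lower. DESeq2 called 5 genes of glutamine, glutamate and ammonia handling lower in place of 1. The cause was not tested. Deviations from the group means correlated with r of -0.028, -0.17 and -0.17 between mice of the same replicate number. No number's libraries correlated best with each other, so the numbers gave no sign of a pairing. With 3 libraries per group these values depend on each other and cannot exclude one. With the replicate number as a block 370 genes were called higher, 164 lower and 0 of the 10. Lgr5 had only 55 to 120 reads per library and Nkd1 83 to 115, and how far depth limits these genes was not tested. For Lgr5 the coefficient of variation with vehicle was 33.8%, where counting gives at most 19.1% at its lowest count.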

Other observations

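Some of the 10 genes followed the same mice. Rhbg and Axin2 were both highest in vehicle replicate 2 among vehicle libraries and in FGF19 replicate 3 among FGF19 libraries, and both were lowest in vehicle replicate 1 and FGF19 replicate 2. Lgr5 took the other side, with its lowest levels of 2.92 and 2.94 CPM in vehicle replicate 2 and FGF19 replicate 3. Tbx3 and Rnf43 were both highest in vehicle replicate 1, at 40.7 and 30.9 CPM, and in FGF19 replicate 3, at 37.1 and 20.2 CPM. These groupings were seen in the values, rest on 6 libraries and were not tested.

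Notum, which encodes a secreted enzyme that inactivates Wnt proteins, had the highest level of the secreted antagonists listed, averaging 34.9 ± 3.97 CPM in vehicle livers and 29.7 ± 3.11 CPM in FGF19 livers (SD, n = 3 each), and was not called (adjusted p = 0.28, edgeR). It was chosen after its values were seen. Of the rest, Dkk3 was tested, with means of 2.42 and 2.72 CPM, and Dkk1, Dkk2, Dkk4, Wif1, Sfrp1, Sfrp2, Sfrp4 and Sfrp5 had too few reads to be tested.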
